A study of Mus musculus with 12 samples.

Results

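The transcripts of 9 cathepsins (Ctsa, Ctsb, Ctsc, Ctsd, Ctsh, Ctsk, Ctsl, Ctss and Ctsz) and of legumain (Lgmn) were followed through dendritic cells and the exosomes those cells released. The genes were chosen by symbol, with earlier results of these data known. All 10 were found among the 27179 rows of the count table. The data were 12 RNA sequencing libraries from 6 C57Bl/6 mice, in 4 groups of 3. Femoral bone marrow of each mouse was grown for 7 days in DMEM, to which 10% fetal calf serum and, as a source of GM-CSF, 10% X-63 supernatant were added, and each mouse gave both a cell library and an exosome library. Wild-type (WT) mice were 33 and 42, both female, and 46, male. Mice 151, 152 and 153, all male, were labelled as double knock-outs (DKO) of Sidt1 and Sidt2, relatives of the nematode double-stranded RNA channel SID-1. The labels name no treatment; the age of the mice and the exons removed are not stated in the sources used here. Exosomes were prepared from culture supernatant by ultrafiltration followed by differential ultracentrifugation, and their RNA was extracted by another method than that of the cells, so extraction and compartment cannot be told apart.

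Cathepsins and legumain are proteases that work in the acid of endosomes and lysosomes. They are made as inactive precursors, carried to the lysosome largely by mannose 6-phosphate receptors, and activated there by cleavage of a propeptide. In antigen-presenting cells they cut internalised proteins into peptides, remove the invariant chain from class II molecules of the major histocompatibility complex and process the nucleic acid-sensing Toll-like receptors. By chemistry Ctsd is an aspartic endopeptidase, and Ctsl, Ctss, Ctsk and Ctsb are cysteine endopeptidases of the papain fold. Ctsb also acts as a peptidyl-dipeptidase. Ctsc, Ctsh and Ctsz are papain-fold exopeptidases, Ctsa is a serine carboxypeptidase, and Lgmn is an asparaginyl endopeptidase of a separate fold.

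Total counts ran from 7215083 to 32273898 per library, and 3 counts, the most that a gene with no count could hide, came to 0.0838 to 0.437 CPM (counts scaled to library size). These limits cover counting error only. The lowest value of any of the 10 genes was 39.9 CPM, for Ctsk in WT cells of mouse 46. Sidt2 ranged from 169 to 217 CPM in WT cells and from 0.632 to 1.32 CPM in cells labelled DKO, whereas Sidt1 had at most 4 counts in a WT library and 309 to 1722 counts in a library labelled DKO. Sidt1 thus went against the label, and directions between genotypes are between libraries by label. The first principal component, 59.4% of the variance, parted exosomes from cells, and along the second (16.6%) the exosomes of WT mouse 33 stood apart. Dendritic cell markers summed to 1770 to 2840 CPM in cells and 522 to 752 CPM in exosomes, and macrophage markers to 2140 to 2700 and 1420 to 1700 CPM. Neutrophil markers summed to 2060 to 2940 CPM in cells and 1430 to 4400 CPM in exosomes. No gene of these lists was at 0 throughout a group. Between bulk cell libraries, fewer cells of a type and less RNA per cell cannot be told apart. Exosome libraries were made from vesicle RNA, so their marker sums do not count cells.

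The genes were highly expressed, and Ctsd and Ctss carried most of the family's transcripts. Together the 10 genes took 2.41 ± 0.134% of all counts in WT cells, 2.77 ± 0.108% in cells labelled DKO, 2.12 ± 0.199% in WT exosomes and 2.63 ± 0.284% in exosomes labelled DKO (SD, n = 3 in each group here and below). In CPM scaled by TMM they summed to 20600 to 23100 in WT cells and 23700 to 25200 in WT exosomes. The direction between compartments in WT thus turned with the scaling. Under the DKO label the sums were 25200 to 26700 CPM in cells and 23400 to 31600 CPM in exosomes. Levels of different genes were compared per length, as CPM per kilobase (RPKM) of the deposited gene length. In WT cells the order by mean RPKM was Ctsd (3530 ± 425), Ctss (3250 ± 157), Ctsb (1090 ± 105), Ctsz (900 ± 98.2), Ctsl (820 ± 24), Ctsh (333 ± 18.5), Lgmn (232 ± 20.6), Ctsc (203 ± 26.3), Ctsa (185 ± 27.3) and Ctsk (32.7 ± 5). Neighbours overlapped between Ctsd and Ctss, along the run Ctsb, Ctsz and Ctsl, and along the run Lgmn, Ctsc and Ctsa, so their order within those runs was not resolved. Ctsk, best known as the collagen-degrading protease of osteoclasts, was the lowest in each of the 4 groups and overlapped no other member in any of them.

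In cells labelled DKO the order was the same except that Ctsl (1260 ± 90.6 RPKM) stood above Ctsz (869 ± 83.2 RPKM), with no overlap between them. Ctsd (4410 ± 226 RPKM) and Ctss (4000 ± 341 RPKM) overlapped again. In exosomes they came apart. WT exosomes held Ctsd at 5000 ± 208 and Ctss at 2730 ± 73.1 RPKM, and exosomes labelled DKO held them at 6250 ± 1050 and 2780 ± 242 RPKM. Ctsc dropped to the ninth place in both exosome groups, at 91.6 ± 9.97 RPKM in WT and 91.2 ± 5.76 RPKM in the libraries labelled DKO, below Ctsa and without overlap with it.

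**Figure D1:**
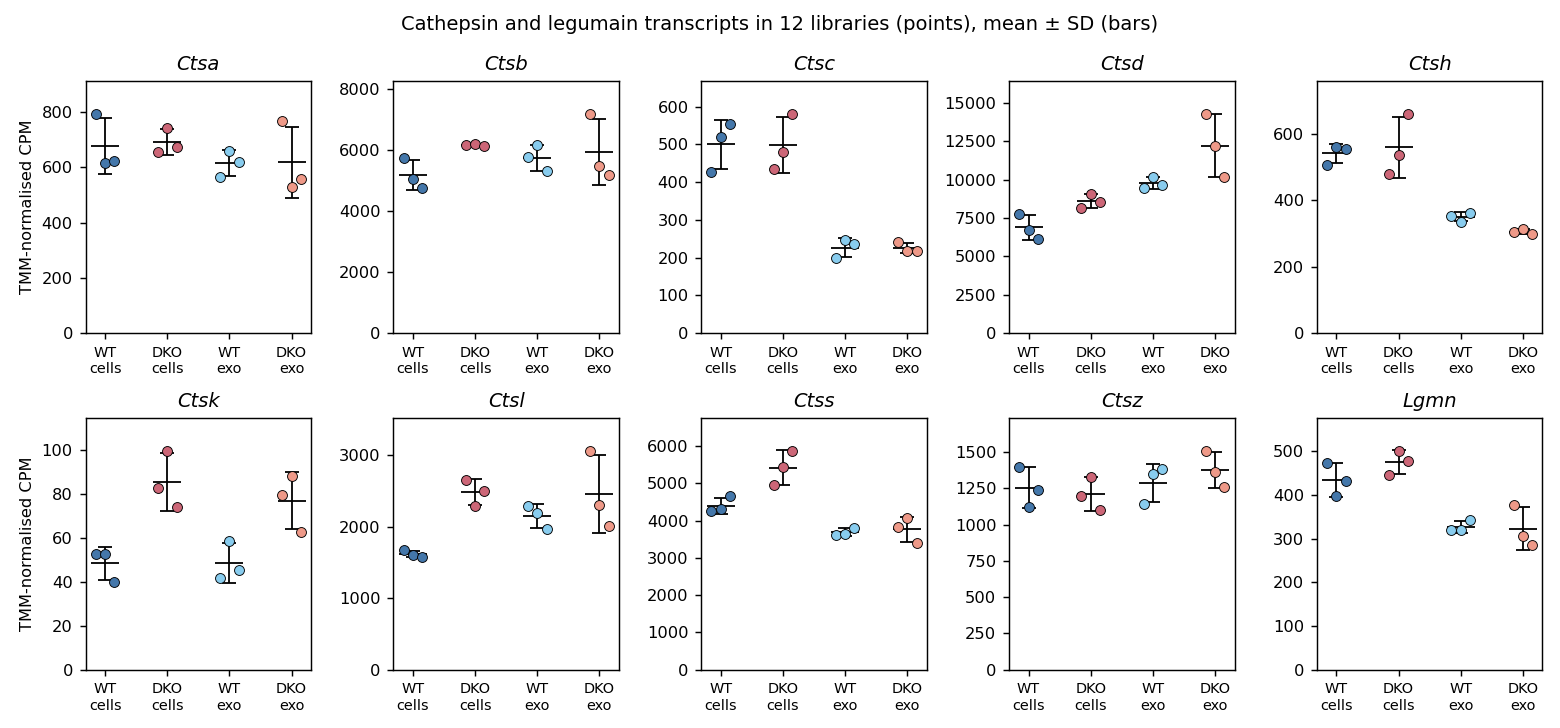
TMM-normalised CPM of each of the 10 genes (vertical axis, from 0, with its own scale per gene) in WT cells, DKO cells, WT exosomes and DKO exosomes; points are single libraries and bars the mean ± SD of 3. Ctsc and Ctsh were lower in all 6 exosome libraries than in any cell library, Ctsd was higher in exosomes than in cells of the same genotype, and Ctsk and Ctsl were higher in DKO cells than in WT cells.

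Promoter sequences are shown for the members on which the comparisons turn. RefSeq windows (GRCm38.p6) were matched for 8 of the 10 genes, in 10 entries, and searched on both strands for CACGTG (the E-box), TCACGTGA (the core of the CLEAR element bound by Tfeb, which contains the E-box), GAGGAA (PU.1), GGGCGG (GC box) and TATAAA. Over 250 bases before the start, CACGTG was in 6.02% of all 32851 promoters and in 4 of the 10 member entries, and TCACGTGA in 0.785% and 2. The share was 23.3% and 3 for GAGGAA, 32.7% and 5 for GGGCGG, and 12.4% and 2 for TATAAA. A match describes the letters and shows no binding. The CLEAR cores of Ctsd, 99 bases before its start, and of Ctsa, 13 bases before one of its starts, stand in capitals in these stretches of the gene's strand. Of the 250 bases of these windows, 211 lie in annotated exons of Ctsd and 164 in exons of Ctsa, whose window lies wholly inside the gene. The windows of Ctsl and Lgmn that hold CACGTG also lie wholly inside their genes. For 8 of the 10 entries the bases after the start matched an annotated transcript. The member shares were not tested against those of all promoters.
Ctsd: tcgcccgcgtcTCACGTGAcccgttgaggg
Ctsa: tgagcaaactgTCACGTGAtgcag

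The windows of Ctsk (chr3:95498960-95499209), Ctss (chr3:95526536-95526785) and Ctsc (chr7:88277835-88278084), each on the plus strand and 5′ to 3′, have the matches to the PU.1, GC box and TATA letters on either strand in capitals. They are shown because Ctsk and Ctss are neighbours of which Ctsk alone was called between genotypes in cells. The difference between these neighbours was not tested. Ctsc is shown because it had the largest difference between compartments among the members.
Ctsk: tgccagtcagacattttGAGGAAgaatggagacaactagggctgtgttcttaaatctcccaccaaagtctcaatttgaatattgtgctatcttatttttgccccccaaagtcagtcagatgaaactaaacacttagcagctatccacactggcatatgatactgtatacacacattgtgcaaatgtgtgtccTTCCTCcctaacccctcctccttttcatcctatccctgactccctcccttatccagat
Ctss: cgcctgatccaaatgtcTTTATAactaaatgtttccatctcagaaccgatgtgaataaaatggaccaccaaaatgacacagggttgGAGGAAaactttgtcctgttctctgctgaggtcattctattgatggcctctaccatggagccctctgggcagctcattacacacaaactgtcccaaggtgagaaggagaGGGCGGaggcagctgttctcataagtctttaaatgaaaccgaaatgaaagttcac
Ctsc: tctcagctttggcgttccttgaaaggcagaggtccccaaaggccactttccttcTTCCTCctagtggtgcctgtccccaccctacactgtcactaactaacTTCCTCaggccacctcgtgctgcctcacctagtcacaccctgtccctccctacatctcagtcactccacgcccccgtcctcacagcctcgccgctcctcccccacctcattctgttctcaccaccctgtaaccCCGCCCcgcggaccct

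Exosomes were set against the cells of the same cultures to see which transcripts the vesicles held above or below the cell level. In WT mice 4 of the 10 genes were called at an adjusted p below 0.05: Ctsd and Ctsl were higher in exosomes, Ctsc and Ctsh were lower. Of all 12829 genes tested 38.3% were called, 18.7% higher and 19.6% lower, so a count of 4 in 10 is close to the background. In mice labelled DKO 5 of the 10 were called, Ctsd higher and Ctsc, Ctsh, Ctss and Lgmn lower, beside 47.5% of all 12316 genes, 23.7% in each direction. The split by direction moved with the scaling: with counts scaled to the library total, 1114 genes were called higher and 4134 lower in WT, with 0 members higher and 5 lower, and in mice labelled DKO 2214 and 3433 genes, with 1 member higher and 4 lower. The libraries of the compartments did not overlap for 6 of the 10 genes in WT and 5 of 10 in mice labelled DKO, where 55.4% and 58.4% of all genes behaved so. The median log2 difference of the 10 genes was -0.05 in WT and -0.15 in mice labelled DKO, beside -0.02 and -0.01 over all genes tested.

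Ctsd, the main aspartic protease of the lysosome, was the member that rose in exosomes of both genotypes. Its transcript stood at 7790, 6730 and 6150 CPM in cells of WT mice 33, 42 and 46 and at 9450, 10200 and 9630 CPM in their exosomes. In cells labelled DKO it stood at 8190, 9070 and 8570 CPM in mice 151, 152 and 153, and in their exosomes at 14300, 12200 and 10200 CPM. Exosomes were above every cell library of their genotype, and each of the 6 mice had more in exosomes than in its own cells, by 1.19 to 1.74 times. The log2 difference was 0.52 ± 0.15 (SE) in WT (edgeR adjusted p = 0.0271) and 0.51 ± 0.16 in mice labelled DKO (adjusted p = 0.0237). With counts scaled to the library total in place of TMM, which moved the median of all genes in WT from -0.02 to -0.39, the WT difference was 0.15 (adjusted p = 0.483), and without a filter on low counts adjusted p was 0.0507. Leaving out the WT cells of mouse 42 or 46 or the WT exosomes of mouse 42 or 46 gave adjusted p of 0.112, 0.147, 0.127 and 0.0565, and leaving out the cells of mouse 151, 152 or 153 or the exosomes of mouse 151 gave 0.101, 0.0594, 0.0745 and 0.0566.

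Ctsl encodes cathepsin L, a cysteine endopeptidase of broad specificity that is best known in antigen presentation for cleaving the invariant chain in thymic epithelium. In WT mice 33, 42 and 46 it was at 1670, 1600 and 1580 CPM in cells and 2280, 2190 and 1960 CPM in exosomes, without overlap. In mice 151, 152 and 153 it was at 2650, 2290 and 2500 CPM in cells and 3060, 2300 and 2010 CPM in exosomes, and the ranges overlapped. It rose in WT exosomes by 0.42 ± 0.14 on the log2 scale (edgeR adjusted p = 0.0447), and its difference was -0.01 ± 0.17 in mice labelled DKO (adjusted p = 0.959). The WT call was lost with the mouse as a block (log2 difference 0.42, adjusted p = 0.0796) with counts scaled to the library total (0.05, adjusted p = 0.816), without a filter (adjusted p = 0.125), and without the WT cells of mouse 33, 42 or 46 or the WT exosomes of mouse 42 (0.0758, 0.155, 0.173 and 0.155). The difference between these differences, -0.42 ± 0.21, did not pass the interaction test (adjusted p = 0.715).

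Ctss, whose product is the main invariant chain protease of dendritic cells and stays active at neutral pH, was lower in exosomes labelled DKO. Cells of mice 151, 152 and 153 held 4950, 5430 and 5880 CPM and their exosomes 3840, 4060 and 3410 CPM. The exosomes lay below all cells of that genotype, with a log2 difference of -0.52 ± 0.14 (edgeR adjusted p = 0.0106). In WT mice 33, 42 and 46 the cells held 4260, 4300 and 4650 CPM and the exosomes 3620, 3650 and 3810 CPM, again without overlap, and the difference of -0.24 ± 0.13 was not called (adjusted p = 0.196; 0.0108 with counts scaled to the library total). The interaction for Ctss, -0.27, was not called either.

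Lgmn, which cuts after asparagine and also activates other cathepsins, ran the same way as Ctss. It was at 447, 502 and 478 CPM in cells of mice 151, 152 and 153 and at 378, 306 and 286 CPM in their exosomes, a log2 difference of -0.56 ± 0.13 (edgeR adjusted p = 0.00494). In WT mice 33, 42 and 46 it was at 474, 397 and 432 CPM in cells and 319, 320 and 343 CPM in exosomes. These WT libraries did not overlap, and the difference of -0.39 ± 0.14 was not called (adjusted p = 0.0525). It was called by DESeq2 (adjusted p = 0.0152), in the fit on all 12 libraries (0.0204), with counts scaled to the library total (0.00456) and without both libraries of mouse 33 (0.049).

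Among the members, the papain-fold exopeptidases Ctsc and Ctsh had the largest differences between compartments. Ctsc encodes dipeptidyl peptidase I, which activates the granule serine proteases of leukocytes. Its transcript was at 428, 520 and 554 CPM in cells of WT mice 33, 42 and 46 and at 199, 246 and 235 CPM in their exosomes. Mice 151, 152 and 153 had 435, 479 and 581 CPM in cells and 242, 217 and 217 CPM in exosomes. Every exosome library lay below every cell library, and the exosome level was 0.373 to 0.556 of the cell level within a mouse. Ctsc fell by 1.13 ± 0.17 on the log2 scale in WT (edgeR adjusted p = 0.00279) and by 1.14 ± 0.13 in mice labelled DKO (adjusted p = 6.22e-05), and it was called under every alternative run in both genotypes, with adjusted p at most 0.0207 and 0.000718.

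Ctsh, an aminopeptidase with some endopeptidase activity, was at 506, 560 and 554 CPM in cells of WT mice 33, 42 and 46 and at 351, 335 and 362 CPM in their exosomes. In mice 151, 152 and 153 it was at 479, 536 and 659 CPM in cells and at 304, 312 and 297 CPM in exosomes. Here too every exosome library lay below every cell library. Ctsh fell by 0.61 ± 0.13 on the log2 scale in WT (edgeR adjusted p = 0.0102) and by 0.87 ± 0.13 in mice labelled DKO (adjusted p = 0.000383). The WT call was lost without the cells of mouse 42 or 46 or the exosomes of mouse 42 (adjusted p = 0.0546, 0.059 and 0.0527). The remaining 4 genes were not called in either genotype: Ctsa, the protective protein of beta-galactosidase and neuraminidase, Ctsb, Ctsz, a carboxypeptidase also called cathepsin X, and Ctsk had log2 differences between -0.16 and 0.19. The exception among alternatives was Ctsa, called lower in WT with counts scaled to the library total (-0.49, adjusted p = 0.0497) and in mice labelled DKO without the exosomes of mouse 151 (-0.34, adjusted p = 0.0468). In the mice taken singly, the exosome level of these 4 ran from 0.712 to 1.26 of the cell level. When the WT exosomes of mouse 33, which stood apart, were left out, the same 4 genes were called in WT, with log2 differences of -1.02 for Ctsc, 0.56 for Ctsd, -0.60 for Ctsh and 0.40 for Ctsl (adjusted p = 0.00198, 0.0188, 0.00832 and 0.0408).

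**Figure D2:**
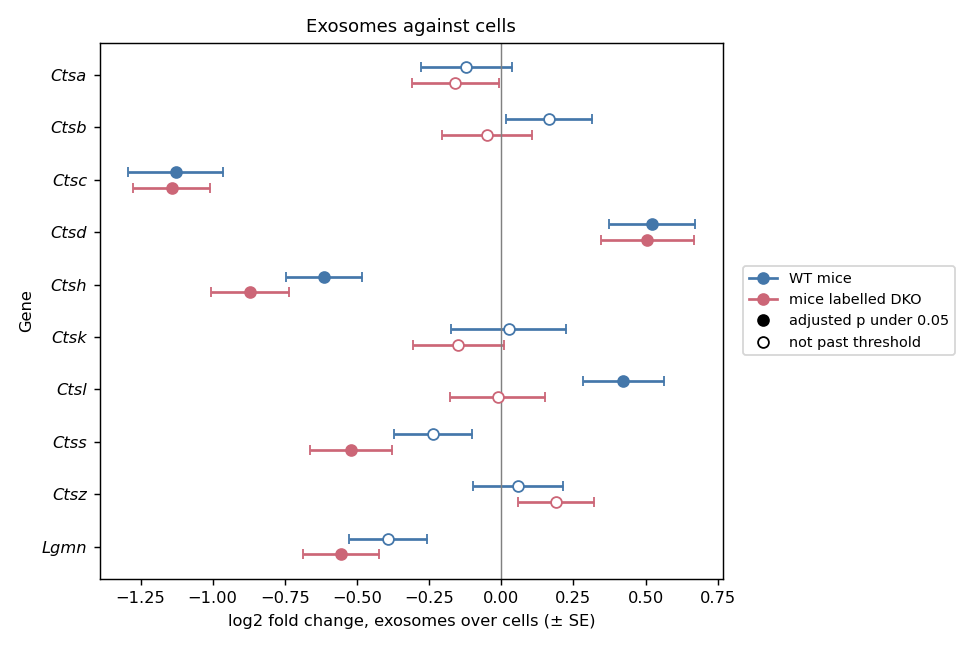
Log2 fold change of exosomes over cells (horizontal axis, points ± SE) for each of the 10 genes in WT mice and in mice labelled DKO; filled points passed an adjusted p of 0.05 in edgeR and open points did not. Ctsc (-1.13 and -1.14) and Ctsh (-0.61 and -0.87) lie farthest below 0, and Ctsd (0.52 and 0.51) lies above it in both genotypes.

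The make-up of the family therefore differed between the compartments, as a description with no test of its own. Ctsd made up 33.3 ± 2.52% of the summed RPKM of the 10 genes in WT cells and 34.2 ± 1.06% in cells labelled DKO. In exosomes its share was 43.0 ± 0.542% in WT and 47.2 ± 1.38% in the libraries labelled DKO. Ctss went the other way, from 30.8 ± 2.64% and 31 ± 1.63% in cells to 23.5 ± 0.944% and 21.3 ± 2.11% in exosomes. The ratio of Ctsd to Ctss in RPKM ran from 0.918 to 1.27 over the 6 cell libraries and from 1.75 to 2.58 over the 6 exosome libraries, so the compartments did not overlap. Since a ratio within a library does not depend on the scaling, this held whatever the library size factor. Ctsd and Ctss together took nearly the same share everywhere, from 63.8% to 70% per library.

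**Figure D3:**
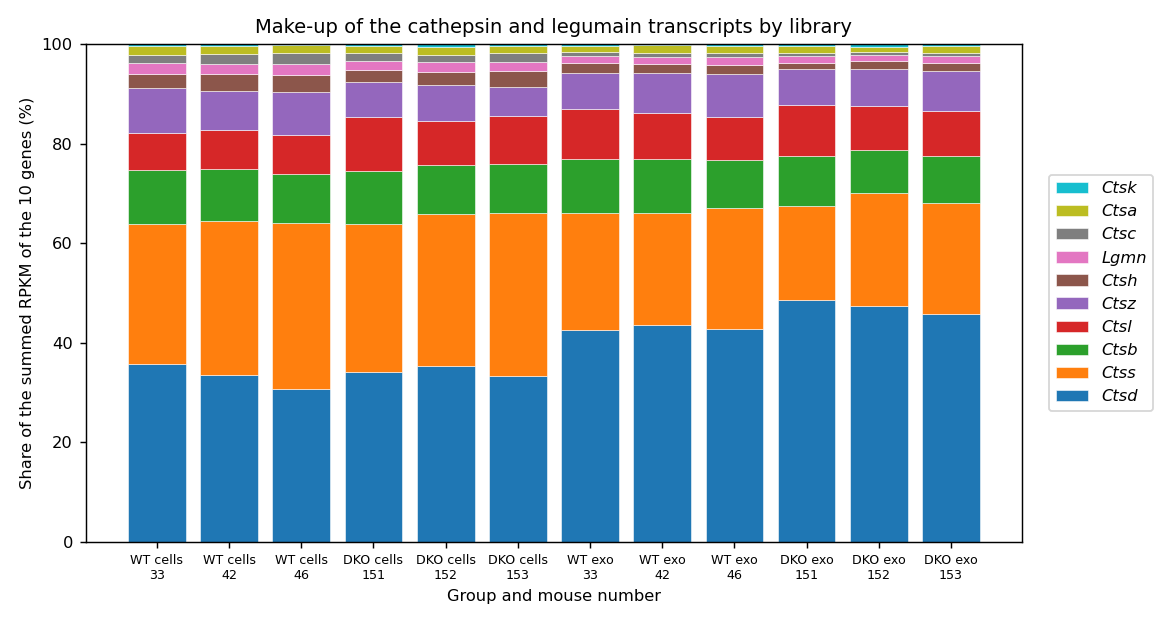
Share of the summed RPKM of the 10 genes (vertical axis, percent, stacked from 0 to 100) in each of the 12 libraries, named by group and mouse number. Ctsd takes 33.3% on average in WT cells and 43.0% in WT exosomes, and Ctss 30.8% and 23.5%.

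Libraries labelled DKO were set against WT to see whether the genotype moved the family. In cells, Ctsk and Ctsl were higher in the libraries labelled DKO. These were 2 of the 10 genes, while 0.404% of all 13106 genes tested were called, 0.267% higher and 0.137% lower. The libraries of the genotypes did not overlap for 5 of the 10, compared with 17.3% of all genes. The median log2 difference of the 10 was 0.20, beside -0.01 over all genes, and 9 of the 10 were positive, compared with 48.2% of all genes. These set values are a description and no test, since the members were chosen with earlier results of these data known. Some members also moved together, with an r of 0.884 for Ctsb and Ctsd after the group means were taken off. With counts scaled to the library total 6 of the 10 were positive, no member was called, and the calls over all genes were 18 higher and 20 lower.

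Ctsk was at 52.7, 52.7 and 39.9 CPM in cells of WT mice 33, 42 and 46 and at 82.6, 99.8 and 74.1 CPM in cells of mice 151, 152 and 153. All 3 libraries labelled DKO were above all 3 WT libraries, by 0.84 ± 0.15 on the log2 scale or 1.79-fold (edgeR adjusted p = 0.0348). Ctsl, with the cell values given above, was higher by 0.63 ± 0.11 or 1.55-fold (adjusted p = 0.0336), and its libraries did not overlap either. These differences lay at the 98.8th and 97.5th percentiles of all genes tested. The male WT mouse, at 39.9 CPM of Ctsk and 1580 CPM of Ctsl, was thus also below every male labelled DKO. This follows from the lack of overlap and is no separate test of sex.

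Of the other genes, Ctsd (0.34 ± 0.12, edgeR adjusted p = 0.381), Ctss (0.31 ± 0.11, adjusted p = 0.391) and Ctsb (0.26 ± 0.11, adjusted p = 0.44) also had libraries that did not overlap, and none of them was called. Ctsb, one of the most abundant lysosomal cysteine proteases, read 5720, 5050 and 4760 CPM in cells of WT mice 33, 42 and 46 and 6160, 6190 and 6110 CPM in those of mice 151, 152 and 153. The WT mice spread more widely than those labelled DKO. Lgmn, Ctsh, Ctsa, Ctsc and Ctsz differed by between -0.04 and 0.14, with libraries that overlapped.

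The calls of Ctsk and Ctsl rested on the settings, although the direction did not. Both were called by DESeq2 and without a filter on low counts, but with sex as a covariate adjusted p was 0.09 for Ctsk and 0.562 for Ctsl, and with counts scaled to the library total 0.073 and 0.0755. In a fit on all 12 libraries it was 0.274 and 0.384. Without WT mouse 42 it was 0.069 and 0.109, without WT mouse 46 0.0811 and 0.0919, without mouse 151 0.141 and 0.204 and without mouse 152 0.321 and 0.207, and Ctsl also missed the threshold without mouse 153 (0.0909). The log2 difference stayed between 0.71 and 1.12 for Ctsk and between 0.53 and 0.69 for Ctsl throughout.

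**Figure D4:**
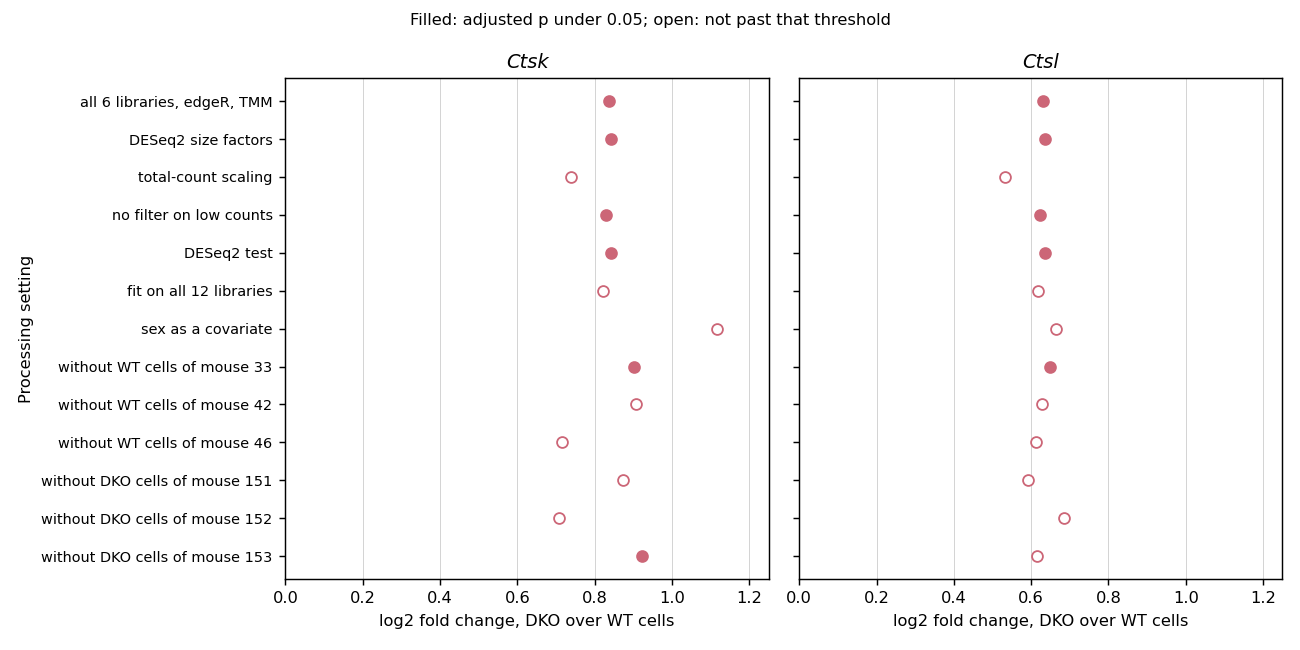
Log2 fold change of cells labelled DKO over WT cells (horizontal axis, from 0) for Ctsk and Ctsl under each processing setting (vertical axis); filled points had an adjusted p under 0.05 and open points did not. Every point lies above 0.5 on the log2 scale, and most settings that leave out a library give open points.

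Ctsk is a defining product of osteoclasts, so markers of that cell type were read beside it. The 10 osteoclast markers summed to 968 to 1020 CPM in WT cells and 1380 to 1580 CPM in cells labelled DKO. Of the 8 that could be tested, 1 was called: Atp6v0d2, a proton pump subunit, averaged 663 ± 22.9 CPM in WT cells and 1110 ± 94.8 CPM in cells labelled DKO (log2 difference 0.76, edgeR adjusted p = 0.0147). Calcr, the calcitonin receptor, was at 0 in all 6 cell libraries, Oscar was at 0 in those labelled DKO, and Acp5, the tartrate-resistant phosphatase, went from 88.6 ± 15.5 to 111 ± 15.8 CPM (adjusted p = 0.44). Without Atp6v0d2, the other 9 markers summed to 305 to 357 CPM in WT cells and 351 to 388 CPM in cells labelled DKO, so that gene carried most of the difference in the sum. Of all genes in this comparison 0.404% were called, and libraries did not overlap for 17.3%. The sums of dendritic cell, macrophage and neutrophil markers overlapped between the genotypes. The neutrophil sum held moves both ways, with none of 10 genes called and a median log2 difference of -0.42. Ngp (163 to 195 CPM in WT cells and 77.8 to 146 CPM in cells labelled DKO), Ltf, Mpo and Prtn3 were lower without overlap. Mmp8 was higher without overlap (994 to 1060 and 1110 to 1460 CPM). The summed markers of some other cells were lower in the cells labelled DKO, without overlap. Those of mast cells and basophils summed to 53.1 to 59.9 CPM in WT cells and 27.8 to 38.3 CPM in cells labelled DKO, with none of 6 tested genes called. Those of B and plasma cells summed to 437 to 480 and 309 to 341 CPM, with 1 of 9 called. This was Ighm, the heavy chain of IgM, at 95.8 ± 28.2 CPM in WT cells and 36.5 ± 8.09 CPM in cells labelled DKO (log2 difference -1.39, edgeR adjusted p = 0.0496). The calls of Atp6v0d2 and Ighm were not rerun under the alternative settings. The part of any of these cells in the Ctsk and Ctsl results was not tested. Markers of fibroblasts, which can also express Ctsk, summed to at most 7.94 CPM in a library.

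In exosomes no member was called between the genotypes, where 0.0332% of 12064 genes were called by edgeR, 0.0249% higher and 0.00829% lower. At an unadjusted p below 0.05 there was 1 of the 10, Ctsk, beside 8.32% of all genes. DESeq2 called 33 genes and no member. Ctsk was at 41.7, 58.8 and 45.2 CPM in WT exosomes and at 79.8, 88.3 and 62.9 CPM in exosomes labelled DKO. All libraries labelled DKO were above WT, by 0.65 ± 0.20 on the log2 scale (edgeR adjusted p = 0.552). Ctsh also had exosome libraries that did not overlap, with those labelled DKO lower (-0.21 ± 0.14, adjusted p = 0.591). Libraries did not overlap for 14.7% of all genes. For Ctsl the log2 difference was 0.19 ± 0.19 and for Ctsd 0.31 ± 0.18 (adjusted p = 0.711 and 0.559). Without the exosomes of WT mouse 33 no member was called either, with Ctsk at 0.57 (adjusted p = 0.977).

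**Figure D5:**
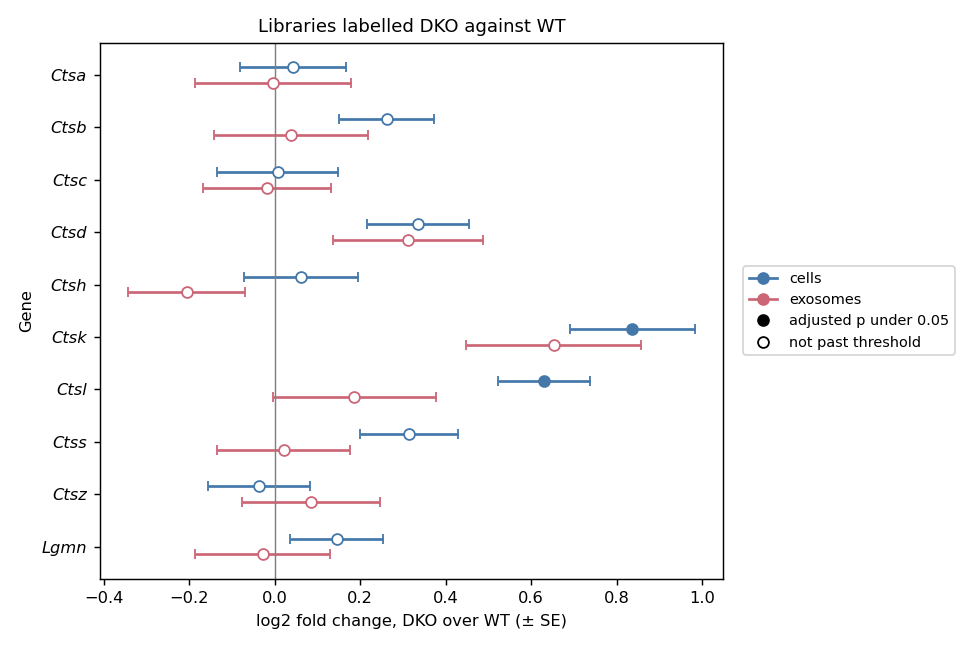
Log2 fold change of libraries labelled DKO over WT (horizontal axis, points ± SE) for each of the 10 genes, in cells and in exosomes; filled points passed an adjusted p of 0.05 in edgeR and open points did not. Ctsk (0.84) and Ctsl (0.63) in cells are the filled points.

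Whether the exosome to cell difference itself changed with the genotype label was tested on all 12 libraries. No member was called, and the share called among all 12970 genes was 0%, by edgeR and by DESeq2 alike. At an unadjusted p below 0.05 edgeR had 776 genes (5.98%), none of them a member, and DESeq2 had 947 genes (7.3%), 1 of them a member. The estimate was -0.42 ± 0.21 for Ctsl, within 0.01 of 0 for Ctsc and Ctsd, and 0.15 for Ctsz. It was positive for 1 of the 10, beside 52.4% of all genes, and for 7 of the 10 with counts scaled to the library total. Without the exosomes of WT mouse 33 that of Ctsl was -0.38 (adjusted p = 0.984). The median of the 10 was -0.15, beside 0.03 over all genes.

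Further genes of the lysosomal pathway were counted in the same comparisons. Of 9 further cathepsins and lysosomal carboxypeptidases, 6 passed the filter on low counts in the WT comparison of compartments and 1 fell: Scpep1, a serine carboxypeptidase related to Ctsa, went from 316 ± 40.5 to 164 ± 25.8 CPM (log2 difference -0.93 ± 0.17, edgeR adjusted p = 0.00597). In mice labelled DKO 3 of 6 fell in exosomes: Scpep1 (-0.80), the aspartic proteases Napsa (-0.86) and Ctse (-1.55, adjusted p = 0.0127, but 0.0573 without the cells of mouse 153). None of the list rose in either genotype. Ctse was low, at 3.27 ± 0.593 CPM in cells labelled DKO and 1.11 ± 0.287 CPM in exosomes labelled DKO. Of all genes tested, 38.3% were called in WT and 47.5% in mice labelled DKO, the shares against which each of the following list counts is to be read. Leaving out a WT library gave 1 to 3 calls in WT, with 3 without the exosomes of mouse 33, and total-count scaling, the fit on all 12 libraries and no filter gave 3, 3 and 2. Ctsd, which rose in exosomes in both, is an aspartic protease of the same family as Napsa and Ctse. The medians were -0.52 and -0.67, beside -0.02 and -0.01 over all genes.

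Of the endogenous inhibitors, a list that also holds serpins of serine proteases, 13 of 20 passed the filter, and in exosomes 2 rose and 2 fell in WT while 1 rose and 3 fell in mice labelled DKO, beside calls of 38.3% and 47.5% of all genes. With each library left out, 2 to 8 were called in WT and 2 to 6 in mice labelled DKO. Serpinb9, which inhibits granzyme B, fell by 2.04 ± 0.15 in WT (121 ± 9.31 to 29.2 ± 0.635 CPM, edgeR adjusted p = 0.000346) and by 2.48 in mice labelled DKO (adjusted p = 1.82e-06). Serpina3g, a serpin that inhibits cathepsin B, fell in both (-1.23 and -1.69), although in WT not without the cells of mouse 42 or 46 (adjusted p = 0.0712 and 0.0909). Serpinb6a rose in both (0.55 and 0.42, adjusted p = 0.0286 and 0.0215), and lost its call with counts scaled to the library total (0.442 and 0.0974) and, in WT, without a filter (0.0564). It was not called without the WT cells of mouse 33, 42 or 46 or the WT exosomes of mouse 42 or 46 (0.0775, 0.0742, 0.089, 0.119 and 0.0586), nor without the cells of mouse 151, 152 or 153 or the exosomes of mouse 152 (0.0951, 0.0541, 0.0574 and 0.0522). Cstb, the cytosolic cystatin that inhibits the papain-fold cathepsins, rose in WT exosomes from 625 ± 51.4 to 1350 ± 284 CPM (1.13 ± 0.19, adjusted p = 0.00435). In mice labelled DKO it went from 805 ± 66.4 to 1030 ± 187 CPM (adjusted p = 0.0701), and the difference between genotypes was not called (interaction adjusted p = 0.715). Csta2, a stefin, fell in the mice labelled DKO (-0.66, adjusted p = 0.0267), but was not called in the fit on all 12 libraries (0.224) or without the cells of mouse 151 or the exosomes of mouse 153 (0.11 and 0.0542). The medians of the list were 0.66 and -0.01. Stfa1, another stefin, spread widely in WT exosomes, at 19.1 ± 18.6 CPM beside 6.97 ± 1.89 CPM in WT cells.

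Genes that carry the proteases to the lysosome were also counted, beside calls of 38.3% and 47.5% of all genes. Of 17 sorting receptors, mannose-tagging enzymes and adaptors, all of which passed the filter, 1 rose and 6 fell in WT, and 4 rose and 6 fell in mice labelled DKO. With each library left out, 4 to 7 were called in WT and 5 to 10 in mice labelled DKO, and total-count scaling gave 11 in WT. Sorl1, a sorting receptor of the Vps10p family, fell by 2.23 ± 0.35 and 2.43 ± 0.26 (edgeR adjusted p = 0.00337 and 3.88e-05). Igf2r, the large mannose 6-phosphate receptor, went from 62.3 ± 1.24 to 26.4 ± 3.65 CPM in WT (-1.22, adjusted p = 0.00226) and was lower by -1.17 in mice labelled DKO (adjusted p = 0.00243). Scarb2, the carrier of glucocerebrosidase, fell in both (-0.69 and -0.83), as did the endocytic receptor Lrp1 (-0.91 and -0.47) and Gnptab, which makes the mannose 6-phosphate tag (-0.99 and -0.64). Their medians were -0.28 and -0.18. Sorl1 was also the one gene of these pathway lists called between genotypes in cells, with 88.5 ± 12.4 CPM in WT and 50 ± 5.04 CPM under the DKO label (-0.81 ± 0.13, adjusted p = 0.0219). That call was lost with sex as a covariate (0.556), in the fit on all 12 libraries (1) and without the cells of mouse 151, 152 or 153 (0.103, 0.262 and 0.0505).

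Partners of the proteases and regulators of lysosomal genes were read beside the same 38.3% and 47.5% of all genes. Of 12, 1 rose and 4 fell in WT exosomes, and 3 rose and 3 fell in those labelled DKO, with medians of -0.14 and -0.15. With each library left out, 2 to 6 were called in WT and 6 to 9 in mice labelled DKO, and with the mouse as a block 3 in WT. Spi1, the myeloid factor PU.1, rose from 247 ± 65.3 to 453 ± 101 CPM in WT (0.89 ± 0.23, edgeR adjusted p = 0.0204) and from 198 ± 21.7 to 475 ± 40.3 CPM in mice labelled DKO (1.27, adjusted p = 2.33e-05). The WT call of Spi1 was lost with the mouse as a block (0.0546), with counts scaled to the library total (0.115) and without the cells of mouse 42 or 46 or the exosomes of mouse 42 (0.0885, 0.0918 and 0.0682). Nfatc1, the factor that drives Ctsk in osteoclasts, fell in both (-0.62 and -0.57, adjusted p = 0.0194 and 0.0111). In WT it was not called without the cells of mouse 33 or 46 or the exosomes of mouse 42 (0.053, 0.0818 and 0.0658). Tfeb, which drives lysosomal genes, rose in mice labelled DKO (1.01, adjusted p = 0.000126). In WT its difference was 0.47 and was not called (adjusted p = 0.178), and neither was the interaction (0.56, adjusted p = 0.715). Irf8, a factor of dendritic cell development, fell in both (-1.07 and -0.76), as did the lysosomal thioesterase Ppt1 (-0.78 and -0.80). Psap, the precursor of the saposins, which cathepsins cleave, was among the most abundant at 14700 ± 1530 CPM in WT cells and 13700 ± 1900 CPM in WT exosomes and was not called (adjusted p = 0.702).

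Among 9 substrates and neighbours in antigen processing, 1 rose and 3 fell in WT exosomes and 1 rose and 4 fell in those labelled DKO, with medians of -0.46 and -0.20, beside calls of 38.3% and 47.5% of all genes. Total-count scaling gave 7 in WT. Cd74, the invariant chain that cathepsin S removes from class II molecules, fell from 6000 ± 1010 to 1970 ± 274 CPM in WT (-1.59 ± 0.19, edgeR adjusted p = 0.00143) and from 4230 ± 577 to 1230 ± 27.6 CPM in mice labelled DKO (adjusted p = 6.28e-06). Tlr7 and Tlr9, endosomal receptors cut by cathepsins, fell in both genotypes (in WT by 0.97 for Tlr7 and 1.66 for Tlr9 on the log2 scale). Prdx6 rose in both (1.19 and 0.66). Between the genotypes no other gene of these 5 pathway lists was called by edgeR in cells, and none was in exosomes. Without a filter on low counts 4 inhibitors and 1 substrate or neighbour were called in cells, and DESeq2 called 2 inhibitors there. In exosomes DESeq2 called 1 substrate or neighbour, and 1 inhibitor was called without the WT exosomes of mouse 46.

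Members differed in how alike their patterns were across the 12 libraries. Ctsc and Ctsh had a Pearson r of 0.964 in log2 CPM, and Ctsd ran against Ctsh (-0.79) and Ctsc (-0.76). With the group means taken off, r was 0.702 for Ctsc and Ctsh and -0.07 for Ctsd and Ctsh. These libraries share mice and compartments, so r is a description. Among 11910 other genes, those most like Ctsd were Plin2 (0.957), Tmem38b (0.949) and Abhd12 (0.947), and those most like Ctsc were Slc16a1 (0.986), Mx1 (0.985) and Itgb1 (0.983). For Ctsk they were Slc37a2 (0.943), Raet1e (0.926) and Zfp973 (0.899), and for Ctsl Spp1 (0.935), Ppbp (0.902) and Plau (0.874). Those of Ctsb were Gpnmb (0.902), Spp1 (0.819) and Klf10 (0.801), and those of Ctss were Smpdl3a (0.959), Sirpb1c (0.948) and Lmbrd1 (0.939). Ctsh was nearest to Gpr141 (0.987), Slc39a10 (0.985) and Lpcat2 (0.98), and Lgmn to Slc44a2 (0.958) and Rpn1 (0.957). Ctsz was nearest to Dhrs11 (0.908) and Rilpl1 (0.872), and Ctsa to Itgb2 (0.905), Ergic3 (0.897) and Tmem104 (0.892).

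In the genome (GRCm38) the members lay on 7 chromosomes. Ctsa was at chr2:164832872-164841032 and Ctsz at chr2:174427494-174439039. Ctsk (chr3:95499210-95509387) and Ctss (chr3:95526786-95556405) were neighbours, 17398 bases apart. Between genotypes in cells Ctsk was called, though not under 7 of 12 alternative settings. Ctss was also higher under the DKO label without overlap, but was not called (0.31, edgeR adjusted p = 0.391). The difference between these neighbours was not tested. Ctsc was at chr7:88278024-88315861 and Ctsd at chr7:142375910-142387827. Ctsh (chr9:90054267-90076095) lay 44.1 Mb from Sidt2 on chromosome 9. Ctsl was at chr13:64361890-64370772, Ctsb at chr14:63122462-63145923 and Lgmn at chr12:102394082-102439728.

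Some exons are shared with other genes. Where the strand setting of the counting is not known, reads of opposite genes cannot be told apart. Ctsb shares 774 exon bases with Fdft1 and Ctsa 495 with Pltp and 324 with Neurl2, all on the opposite strand. The partners had 10196, 9665 and 1024 counts over the 12 libraries, compared with 1260350 for Ctsb and 149451 for Ctsa. Ctsl shares 1742 bases with the antisense gene Gm47123 and 395 with the pseudogene Gm49230, and Ctsd 808 with Gm49369 on the same strand. Gm47123, Gm49230 and Gm49369 were not matched in the count table. Their part in the counts of Ctsl and Ctsd therefore cannot be gauged. The rodent cathepsins of the placenta, also on chromosome 13 and at least 2.8 Mb from Ctsl (Ctsj, Ctsm, Ctsq, Ctsr, Ctsll3, Cts3, Cts6, Cts7 and Cts8) had at most 2 counts in a library.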

How the data were processed

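RNA of bone-marrow-derived dendritic cells and of their exosomes was sequenced in 12 libraries. The deposited table gives each gene's length and its raw count, which the authors made with featureCounts on mm10, per the submitters' processing notes. Per the labels' protocols, libraries came from 200 ng of RNA (TruSeq) and were read as 80 bp paired ends. Aligner, versions, annotation and strand setting: not given in the sources used here. Groups, sex and mouse numbers came from the labels. Symbols were matched for 25275 of 27179 identifiers.

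Pairs of groups were compared on the 6 libraries concerned, and the interaction of compartment and genotype on all 12, with the quasi-likelihood F test of edgeR 4.0.16 in R 4.3.3 (robust fit, filterByExpr, TMM), adjusted by Benjamini-Hochberg over all genes tested. Called means an adjusted p below 0.05. CPM were scaled by TMM over the 12 libraries, RPKM used the deposited length, and levels are mean ± SD over 3 mice. On simulated data for the WT comparison of compartments, 98 of 12638 genes were changed at a log2 fold of 1 and 95 at 2. The test recovered 18.4% and 73.7% of them, with 7 false calls. The simulation changed few genes, whereas 38.3% were called in the real WT comparison, so these shares are not the power of that comparison. For the comparison of genotypes in cells, with 100 and 99 of 12965 genes changed, the test recovered 72% and 96%, with 3 false calls.

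A mouse number marks the cells and exosomes of 1 animal, so the numbers pair libraries. Deviations from the group means correlated within mice at 0.00554 to 0.147, and 5 of 6 cell libraries matched best with the exosomes of their own mouse. No replicate pair agreed within sampling noise. Alternatives were DESeq2 (1.42.0) and its size factors, total-count scaling, no filter, each library left out, sex as a covariate, the mouse as a block and 1 fit over the 12 libraries. The text names all 10 members, Sidt1 and Sidt2, up to 4 called genes per list and comparison with the smallest p, and the 3 genes most alike to each member, some of which are not reported here. A few further genes (Acp5, Atp6v0d2, Calcr, Ighm, Ltf, Mmp8, Mpo, Ngp, Oscar, Prtn3, Psap and Stfa1) were chosen after their values were seen. The members and lists were chosen with earlier results of these data known. Protein sequences were not used here.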

Additional observations from a re-analysis of the deposited data

How the results depend on the processing

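Between genotypes in cells, 53 genes were called, and the count was 192 with DESeq2, 202 without a filter, 7 in the fit on all 12 libraries, 11 with sex as a covariate and 5 to 119 with each library left out. The members called there were 0 with total-count scaling, in the fit on all 12 libraries and with sex as a covariate, and 0 to 2 with each library left out. In exosomes, 4 genes were called between genotypes, and the count was 33 with DESeq2, 20 without a filter, 15 in the fit on all 12 libraries, 14 with sex as a covariate and 3 to 144 with each library left out. Between compartments in WT, 4909 genes were called and 2284 to 5522 with each library left out. The members called were 2 without a filter, 5 with total-count scaling, all of them lower (0 higher), and 1 to 4 with each library left out; Ctsd, Ctsh and Ctsl were those that lost a call when a library was left out. With the mouse as a replicate block 3837 genes (3 members) were called in WT and 6305 (5 members) in mice labelled DKO, the interaction had 0, and, of the members, the call of Ctsl in WT alone changed.

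Differences near 0 changed sign. In WT, exosomes against cells with total-count scaling gave -0.21 for Ctsb, -0.34 for Ctsk and -0.31 for Ctsz. There Ctsk was -0.019 without a filter and ran from -0.16 to 0.14 with each library left out, Ctsz from -0.022 to 0.16, and Ctsa was 0.056 without both libraries of mouse 33. In mice labelled DKO, leaving out a library gave -0.21 to 0.044 for Ctsb and -0.20 to 0.11 for Ctsl. Between genotypes in cells, total-count scaling gave -0.055 for Ctsa, -0.091 for Ctsc and -0.037 for Ctsh. Ctsc was -0.0069 in the fit on all 12 libraries, -9e-04 without a filter and -0.14 with sex as a covariate. With each library left out Ctsa ran from -0.017 to 0.17, Ctsc from -0.13 to 0.11, Ctsh from -0.084 to 0.17 and Ctsz from -0.11 to 0.041. In exosomes Ctsa was 0.001 with DESeq2 and with its size factors, 0.0069 in the fit on all 12 libraries and 0.15 with total-count scaling, which also gave 0.13 for Ctsc and 0.12 for Lgmn. With sex as a covariate Ctss was -0.024 and Ctsz -0.009. With each library left out Ctsa ran from -0.18 to 0.12, Ctsb from -0.11 to 0.13, Ctsc from -0.082 to 0.051, Ctss from -0.012 to 0.088 and Lgmn from -0.15 to 0.053.

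For the interaction, total-count scaling gave 0.20 for Ctsa, 0.023 for Ctsb, 0.22 for Ctsc, 0.22 for Ctsd, 0.053 for Ctsk and 0.078 for Lgmn. Without a filter Ctsc was 0.014 and Ctsd 0.013, with the mouse as a replicate block Ctsc was 0.006, and without both libraries of mouse 33 Ctsc was 0.016 and Ctsz -0.019. With each library left out Ctsa ran from -0.21 to 0.076, Ctsc from -0.089 to 0.12, Ctsd from -0.13 to 0.089 and Ctsk from -0.27 to 0.0041. The cause of these changes was not tested. With 3 mice a group, a difference that was not called may still be present.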
